A study of Mus musculus with 9 samples.

Results

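Heme synthesis, heme breakdown, iron handling and the red cell membrane were followed through 31 genes that make or carry the parts of a red cell. They were chosen by gene symbol from known roles, with earlier results of these data known. They comprise 8 heme synthesis enzymes, 2 heme breakdown enzymes, 6 iron handling genes, 3 cytosolic enzymes, 10 membrane genes and 2 other erythroid genes. Of the 31, 30 were matched by symbol among the 22942 rows of the deposited RNA table, and the remaining membrane gene is not analysed here. The series compared bone marrow mononuclear cells of B6.SJL (CD45.1) mice that had received retroviruses. MLL-AF9 cells carried the leukemia fusion gene in the vector MSCVneo together with the vector MSCVpuro, and control cells carried the MSCVneo and MSCVpuro vectors without the fusion, so that both groups had been through transduction with the same vector backbones. Each group has 3 polyA RNA libraries, read as single reads of 51 bp. The table gives 1 value per gene and group in FPKM, a fragment count scaled to transcript length and sequencing depth, so no spread between libraries can stand beside a value and the depth is unknown. The labels give no age, no time after transduction and no purity, and they do not say whether libraries came from separate animals.

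Heme is built in steps that begin and end in the mitochondrion, from the condensation of glycine with succinyl-CoA to the insertion of iron into protoporphyrin. Developing red cells in the marrow run this pathway at a far higher rate than other cells, take up iron through the transferrin receptor and insert blood group proteins, transporters and an actin-spectrin skeleton into their membrane. The same heme enzymes and ferritins also serve every other cell with mitochondria, and marrow macrophages break down heme from old red cells and export its iron.

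In MLL-AF9 cells 6 of 9 matched membrane genes and 2 of 3 cytosolic enzymes fell, and 0 of 8 heme synthesis enzymes passed. The difference between these roles was not tested. Of the membrane genes that fell, Ermap, Rhag, Kel and Add2 averaged under 5 FPKM over both groups. Calls rest on 2 conditions, a deposited q-value under 0.05 and an average over both groups of 1 FPKM or more, called the minimum mean. Of the 30 genes 11 fell and 0 rose, where 5.20% of the 11538 genes tested were called lower and 5.13% were called higher in the authors' deposited table (10.3% in either direction). Since the genes were chosen with earlier results of these data known, this contrast is a description and not a test. The 11 genes were Car1, Car2, Aqp1, Slc40a1, Ermap, Kel, Hemgn, Hmox1, Rhag, Cldn13 and Add2, with falls between 4.11-fold and 42.0-fold. Their values lay between 3.52 and 96.3 FPKM in control and between 0.509 and 13.7 FPKM in MLL-AF9 cells. In bulk RNA of mixed marrow cells, fewer cells of a type and less of a transcript per cell cannot be told apart.

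The other 19 genes did not pass, with 14 of them listed lower and 5 listed higher in MLL-AF9 cells. Of the 19, 5 had an unadjusted p-value under 0.05 in the authors' deposited table: Slc4a1, Blvrb, Trim10, Cpox and Tspan33, all listed lower. Over the 30 genes the median log2 change was -1.11, on the scale of log2(FPKM + 1) in MLL-AF9 over control that is used for log2 changes throughout and that understates the change of low genes. The same median over all 11538 genes was 0.29. A value below that of control was listed for 25 of the 30 genes, or 83.3%, and for 31.3% of all genes tested. All 30 reached the minimum mean, but 5 of them (Add2, Aqp1, Icam4, Kel and Trim10) were under 1 FPKM in MLL-AF9 cells and so reached it through control alone. Among the 11 that fell, Ermap, Rhag, Kel and Add2 had a mean under 5 FPKM, and with that minimum 7 genes were called lower. Those left out are all membrane genes, so Aqp1 and Cldn13 were the only membrane genes still called.

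**Figure D1:**
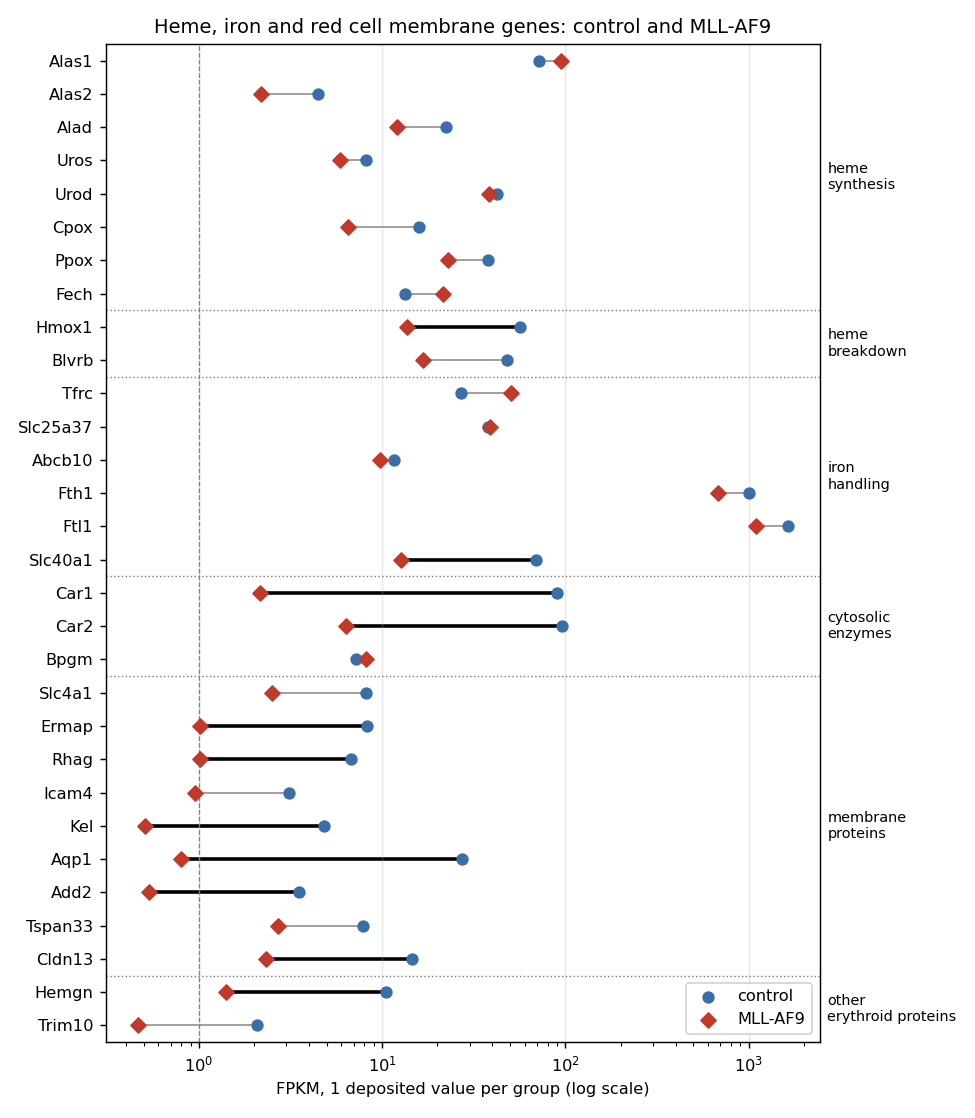
Deposited FPKM value of each matched gene in control (circles) and MLL-AF9 cells (diamonds) on a log axis, grouped by role, 1 value per group without error. Thick lines join the 11 genes with a q-value under 0.05, all lower in MLL-AF9 cells, and thin lines the 19 others; the dashed line marks 1 FPKM.

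Markers of erythroid cells other than these genes were read beside them. All matched markers are also in the lists of other pathway genes below, so their falls are counted there again. Of 9 matched markers 6 reached the minimum mean, and of these 4 fell and 0 rose; the summed level of the 9 was 52.8 FPKM in control and 10.8 FPKM in MLL-AF9 cells, and none was at 0 in either group. The 4 were Epor, the erythropoietin receptor, and the transcription factors Klf1, Gata1 and Tal1, of which Epor, Klf1 and Tal1 were under 1 FPKM in MLL-AF9 cells and so reached the minimum through control alone. Gata1, a zinc finger factor that switches on most red cell genes, fell 7.59-fold from 10.2 to 1.35 FPKM (the authors' deposited table gives q = 0.00727). How far a changed share of erythroid cells accounts for the values below was not tested.

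The letters that GATA factors recognise were searched in the promoters of the genes, since Gata1 fell in the same comparison. Gata2, another GATA factor, was listed in the other direction, at 11.2 and 27.2 FPKM, without passing (the authors' deposited table gives q = 0.108). RefSeq promoters (build GRCm38.p6, from 250 bases before to 50 bases after an annotated start) were matched for 22 of the 30 genes, in 28 windows. Those without an entry were Fech, Hmox1, Slc25a37, Slc40a1, Car1, Car2, Slc4a1 and Cldn13. AGATAA or TGATAA, on either strand, was present for 9 of the 22 genes (40.9%), compared with 12.3% of the 7630 genes that reached the minimum mean and had an entry, and 21.0% of all 27025 genes with one. The 9 were Kel, Rhag, Ermap, Hemgn, Alas2, Cpox, Icam4, Trim10 and Uros. The letters were found for 4 of the 6 genes that fell and had an entry, and for 5 of the 16 that did not pass. Among all genes called lower 18.2% of 407 had them, among those called higher 15.6% of 347, and among those not called 11.8% of 6876. These shares are descriptions without a test, and a match is not a shown binding site. Because the genes were chosen for known roles in red cells, their share cannot be read as a result of the RNA change. Shown are the 150 bases before the start for the 4 genes that fell (Kel, Rhag, Ermap and Hemgn) and for 4 that have the letters but did not pass, with both starts of Uros; capitals mark AGATAA or TGATAA, which read TTATCT or TTATCA where they lie on the other strand.
Kel (chr6:41704326-41704475, minus strand): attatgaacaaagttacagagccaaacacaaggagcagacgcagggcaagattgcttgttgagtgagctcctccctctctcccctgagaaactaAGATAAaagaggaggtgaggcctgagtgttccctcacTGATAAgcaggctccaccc
Rhag (chr17:40810999-40811148, plus strand): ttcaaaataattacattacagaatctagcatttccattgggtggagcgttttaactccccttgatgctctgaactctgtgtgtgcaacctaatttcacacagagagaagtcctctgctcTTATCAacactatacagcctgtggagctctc
Ermap (chr4:119189996-119190145, minus strand): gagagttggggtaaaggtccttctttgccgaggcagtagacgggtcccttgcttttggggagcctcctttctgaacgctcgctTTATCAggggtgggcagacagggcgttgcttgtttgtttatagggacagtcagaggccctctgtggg
Hemgn (chr4:46404184-46404333, minus strand): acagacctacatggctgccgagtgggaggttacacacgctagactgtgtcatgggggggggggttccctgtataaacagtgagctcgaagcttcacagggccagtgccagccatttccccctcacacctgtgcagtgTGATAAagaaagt
Alas2 (chrX:150547267-150547416, plus strand): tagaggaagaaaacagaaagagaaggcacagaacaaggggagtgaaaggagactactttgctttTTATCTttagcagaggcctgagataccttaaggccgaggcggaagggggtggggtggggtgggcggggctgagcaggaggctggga
Cpox (chr16:58670058-58670207, plus strand): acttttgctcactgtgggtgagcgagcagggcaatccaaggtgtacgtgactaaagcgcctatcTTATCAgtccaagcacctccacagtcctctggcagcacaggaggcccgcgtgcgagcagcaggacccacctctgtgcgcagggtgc
Icam4 (chr9:21029282-21029431, plus strand): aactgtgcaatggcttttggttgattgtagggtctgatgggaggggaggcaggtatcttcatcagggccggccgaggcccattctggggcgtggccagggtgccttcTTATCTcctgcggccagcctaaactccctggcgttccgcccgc
Uros, downstream start (chr7:133702501-133702650, minus strand): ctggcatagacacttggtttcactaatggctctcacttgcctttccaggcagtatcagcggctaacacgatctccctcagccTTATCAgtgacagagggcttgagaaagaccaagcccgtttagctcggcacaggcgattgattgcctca
Uros, upstream start (chr7:133709296-133709445, minus strand): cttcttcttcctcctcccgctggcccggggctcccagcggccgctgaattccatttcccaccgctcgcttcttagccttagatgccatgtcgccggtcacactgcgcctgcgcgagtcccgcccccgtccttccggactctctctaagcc

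In Kel the letters occurred at 2 places before the start, beginning 56 and 19 bases upstream, and in Rhag at 1 place, 31 bases upstream. In Ermap they began 67 bases upstream, and in Hemgn 13 bases upstream with a further match after the start. In Alas2 and Cpox they began 86 bases upstream, in Cpox with a further match after the start, in Icam4 43 bases and in Trim10, which is not shown, 163 bases upstream. Uros is known to have a housekeeping start and an erythroid start further downstream; only the window of the downstream start held the letters, 68 bases upstream, and the deposited table does not separate the starts. The shorter CACCC letters, bound by Klf1 and other factors of its family, were present for 17 of the 22 genes (77.3%), compared with 65.6% of the genes that reached the minimum mean. Their longer form CACACCC, which contains CACCC, was present for 2 of the 22, and the E-box letters CAGATG or CAGCTG for 4, against 10.3% and 27.0% of those genes. The loop of an iron-responsive element was searched on the sense strand as CAGTG with a C 6 bases before it. These letters were found for Hemgn, Uros and Abcb10, and for 11.4% of the genes that reached the minimum mean. In each of the named genes they lay before the start, and so outside RNA made from that start. The windows reach only 50 bases past a start, so elements further into a transcript could not be found, and Slc40a1 had no window. In Uros the match overlaps the GATA letters of the downstream window.

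Heme synthesis was the role in which no gene passed: of its 8 enzymes 0 rose and 0 fell, and 1, Cpox, had an unadjusted p-value under 0.05 in the authors' deposited table. Their median log2 change was -0.56, with 6 of 8 listed lower, and their summed level was 217 FPKM in control and 204 FPKM in MLL-AF9 cells. A p-value that misses the threshold does not show that the values are equal, and without values per library no interval can be given. The first and rate-limiting step is run by Alas1 in most cells and by the X-linked isoenzyme Alas2 in red cell precursors. Alas1 was listed at 72.2 FPKM in control and 94.3 FPKM in MLL-AF9 cells (the authors' deposited table gives q = 0.745). Alas2 was listed at 4.45 and 2.18 FPKM (the authors' deposited table gives q = 0.479). The Alas1 level was thus 16.2 times that of Alas2 in control and 43.2 times in MLL-AF9 cells, both per length. In control cells Alas2 lay between Add2, at 3.52 FPKM, and Kel, at 4.81 FPKM. In the annotation, Alas2 overlaps Apex2, a DNA repair gene listed at 4.17 and 4.84 FPKM, and Uros overlaps Bccip; the library kit does not keep strand, so reads of such pairs may not be separable.

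Of the matched enzymes of the steps that follow, only Fech was listed higher in MLL-AF9 cells, and none passed. Alad, which forms porphobilinogen, was listed at 22.4 FPKM in control and 12.1 FPKM in MLL-AF9 cells, and Uros, which closes the porphyrin ring, at 8.13 and 5.86 FPKM. Urod, the decarboxylase of the next step, was listed at nearly equal levels of 42.5 and 38.4 FPKM. The largest difference of the pathway was in Cpox, coproporphyrinogen oxidase, at 15.8 FPKM in control and 6.55 FPKM in MLL-AF9 cells, 2.42-fold lower without passing (the authors' deposited table gives q = 0.157). Ppox, the oxidase that makes protoporphyrin, was listed at 37.9 and 22.8 FPKM. Fech, which inserts iron as the last step, was listed higher in MLL-AF9 cells, at 21.4 against 13.3 FPKM (the authors' deposited table gives q = 0.510).

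The gene for the first step of heme breakdown fell. Hmox1, the inducible heme oxygenase that opens the heme ring and frees its iron, fell 4.11-fold, from 56.2 FPKM in control to 13.7 FPKM in MLL-AF9 cells (the authors' deposited table gives q = 0.00645). Hmox2, the constitutive oxygenase, was listed at 57.5 and 59.5 FPKM (the authors' deposited table gives q = 0.972). The oxygenases were thus level in control, with Hmox2 at 1.02 times Hmox1, and Hmox2 stood at 4.35 times Hmox1 in MLL-AF9 cells. Blvrb, a biliverdin and flavin reductase abundant in red cells, was listed at 47.9 FPKM in control and 16.6 FPKM in MLL-AF9 cells, 2.88-fold lower without passing (the authors' deposited table gives q = 0.117). Blvra, the main biliverdin reductase of other cells, was listed at 19.7 and 26.3 FPKM. Blvra was the lower of the reductases in control, at 0.412 times Blvrb, and the higher in MLL-AF9 cells, at 1.58 times Blvrb; the difference between the pairs was not tested.

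The iron exporter gene fell, while genes of uptake, mitochondrial import and storage did not pass. Slc40a1 encodes ferroportin, the exporter of cellular iron. It fell 5.49-fold, from 69.5 FPKM in control to 12.7 FPKM in MLL-AF9 cells (the authors' deposited table gives q = 0.000192). Tfrc, the transferrin receptor that brings iron into the cell, was listed higher in MLL-AF9 cells, at 50.7 against 26.8 FPKM, and did not pass (the authors' deposited table gives q = 0.303). Its log2 change of 0.90 was the highest of the 30 genes. The level of Tfrc was 0.386 times that of Slc40a1 in control and 4.01 times in MLL-AF9 cells. Of its relative Tfr2, a receptor of liver and erythroid cells, 5.30 FPKM were listed in control and 2.02 FPKM in MLL-AF9 cells (the authors' deposited table gives q = 0.280).

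Mitoferrin-1, the iron carrier of the mitochondrial inner membrane encoded by Slc25a37, was listed at 38.0 FPKM in control and 38.8 FPKM in MLL-AF9 cells (the authors' deposited table gives q = 0.985). Its log2 change of 0.03 turned negative under each of 4 other scalings, so no direction is given for it. Slc25a28, its broadly expressed relative mitoferrin-2, was listed at 32.7 and 18.7 FPKM. Abcb10, a mitochondrial transporter that stabilises mitoferrin-1, was listed at 11.6 and 9.76 FPKM. The ferritin subunits, which store iron, were the most abundant of the 30 genes in both groups. Ftl1 (light chain) was listed at 1636 FPKM in control and 1104 FPKM in MLL-AF9 cells, and Fth1 (heavy chain) at 1009 and 683 FPKM. Neither passed (the authors' deposited table gives q = 0.716 for Ftl1 and 0.664 for Fth1), and the ratio of Ftl1 to Fth1 was 1.62 in both groups. Ferritin genes have many processed copies in the genome, and whether reads were shared with them was not tested.

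Hmox1 and Slc40a1 are also genes of macrophages that recycle red cells, so markers of tissue macrophages were read beside them. Of 11 matched markers 9 reached the minimum mean; 7 of these fell, 3 of them after reaching the minimum through control alone, and 1 rose. The markers' summed level was 104 FPKM in control and 53.2 FPKM in MLL-AF9 cells, and none was at 0. Spic, a transcription factor of iron-recycling macrophages, fell from 2.50 to 0.240 FPKM, and Vcam1, an adhesion molecule of erythroblastic island macrophages, fell from 18.6 to 3.20 FPKM. The complement gene C1qb fell from 20.1 to 1.52 FPKM. In the other direction Cd163, the scavenger receptor for hemoglobin, rose from 1.41 to 8.85 FPKM, and Emr1, which encodes the F4/80 antigen, was listed at 20.7 and 35.3 FPKM without passing. The part of these cells in the falls of Hmox1 and Slc40a1 was not tested.

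Of the cytosolic enzymes, both carbonic anhydrases fell and Bpgm did not pass. Car1 and Car2 interconvert carbon dioxide and bicarbonate; Car1 is largely a red cell enzyme of the blood, while Car2 is found in many tissues. Car1 had the lowest log2 change of the 30 genes, at -4.86, with rank 27 from the lowest among the 11538 genes, and Car2 had rank 69, at -3.73. Their levels were alike in control, at 90.1 and 96.3 FPKM, and unlike in MLL-AF9 cells, at 2.14 and 6.31 FPKM, so that Car2 stood at 1.07 times Car1 in control and at 2.95 times in MLL-AF9 cells. Car13, a further cytosolic form, was listed at 1.21 and 0.440 FPKM. Bpgm makes bisphosphoglycerate, which lowers the oxygen affinity of hemoglobin. It was listed at 7.19 FPKM in control and 8.20 FPKM in MLL-AF9 cells (the authors' deposited table gives q = 0.909), a log2 change of 0.17 that turned negative under quantile normalization and after centring on the median gene.

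**Figure D2:**
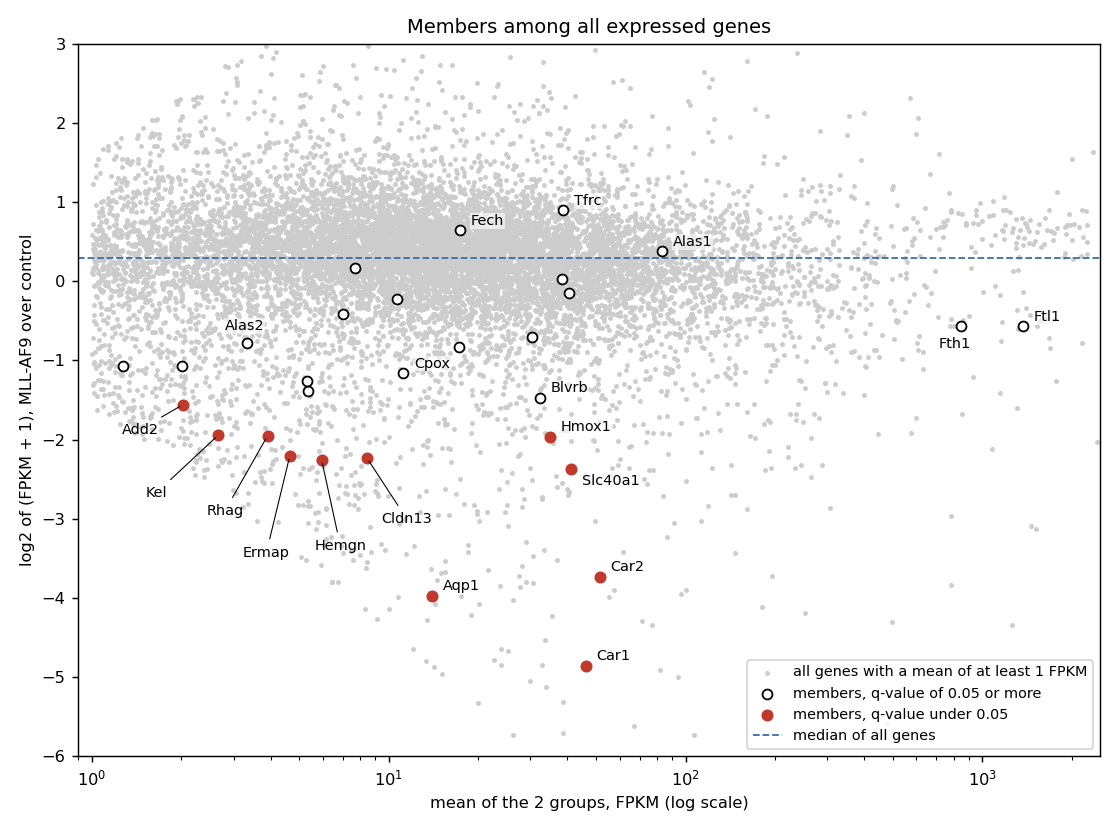
Log2 change of (FPKM + 1), MLL-AF9 over control, against the mean of the 2 groups in FPKM (log axis), with 1 point per gene; 150 of the 11538 genes lie outside the axes. The 11 genes that fell (filled) lie between -1.56 and -4.86, and the dashed line marks the median of all genes at 0.29.

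The membrane held most of the genes that fell, but of its genes that fell only Aqp1 and Cldn13 had a mean of 5 FPKM or more. Of 9 matched genes 6 fell and 0 rose, all 9 were listed lower, and their median log2 change was -1.95. Their summed level was 84.3 FPKM in control and 12.3 FPKM in MLL-AF9 cells, a 6.83-fold difference, of which Aqp1 and Cldn13 made up the largest parts in control. Aqp1 encodes the water channel of red cells that carries the Colton blood group. It fell 34.2-fold, from 27.2 to 0.796 FPKM (the authors' deposited table gives q = 2.35e-08), with rank 55 from the lowest log2 change among the 11538 genes. Its relative Aqp9, a channel for water and small solutes, also fell, 8.27-fold from 19.4 to 2.34 FPKM (the authors' deposited table gives q = 0.000513). Endothelial cells also make the Aqp1 channel. Of 5 endothelial markers only Pecam1, which blood cells share, reached the minimum mean, and it rose from 17.1 to 105 FPKM. Cdh5, the endothelial cadherin, was listed at 0.634 and 0.151 FPKM. The part of endothelial cells in the Aqp1 value was not tested.

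Other blood group genes among the matched membrane genes also fell or were listed lower. Not all further red cell membrane genes did so. From the list of further membrane genes counted below, Xk, Slc14a1 and Bsg were listed higher in MLL-AF9 cells without passing. They stood at 4.92 against 4.42 FPKM, 7.81 against 6.56 FPKM and 137 against 120 FPKM. After centring on the median gene their log2 changes were negative, at -0.17, -0.074 and -0.10. Of the 15 genes of that list past the minimum mean, 8 were listed lower. Of those under it, Spna1, Spnb1, Epb4.2 and Darc were listed lower, Spna1 with a q-value under 0.05, and Tmod1 was listed higher. Ermap, which carries the Scianna group, fell 8.20-fold from 8.27 to 1.01 FPKM (the authors' deposited table gives q = 0.00118). Kel, the Kell metalloprotease, fell 9.46-fold from 4.81 to 0.509 FPKM (the authors' deposited table gives q = 0.00451). The related protease Ece1 was listed in the other direction, at 4.26 and 8.95 FPKM (the authors' deposited table gives q = 0.261). Rhag, the glycoprotein on which the Rh complex is assembled, fell 6.69-fold from 6.80 to 1.01 FPKM (the authors' deposited table gives q = 0.0149). Its partner Rhd was listed at 13.4 and 3.64 FPKM without passing (the authors' deposited table gives q = 0.0993). Icam4, the Landsteiner-Wiener adhesion protein, was listed at 3.09 and 0.950 FPKM (the authors' deposited table gives q = 0.359), and its relatives of white cells Icam1 and Icam2 were listed higher in MLL-AF9 cells, at 12.9 against 8.48 FPKM and at 36.4 against 24.5 FPKM, without passing.

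Transport and skeleton proteins of the membrane were divided by the threshold. Slc4a1, the anion exchanger that anchors the membrane to its skeleton, was listed at 8.15 FPKM in control and 2.50 FPKM in MLL-AF9 cells, 3.26-fold lower, and had the smallest q-value of those that did not pass (the authors' deposited table gives q = 0.0664). The widely expressed exchanger Slc4a2 was listed at 19.1 and 18.1 FPKM, so that it stood at 2.34 times Slc4a1 in control and at 7.22 times in MLL-AF9 cells. Add2, the beta subunit of adducin that caps actin in the skeleton, fell 6.58-fold from 3.52 to 0.534 FPKM, with the largest q-value of those that passed (the authors' deposited table gives q = 0.0234). Cldn13, a claudin made by mouse red cell precursors, fell 6.31-fold from 14.6 to 2.31 FPKM (the authors' deposited table gives q = 0.0221). The tetraspanin Tspan33 was listed at 7.88 and 2.72 FPKM (the authors' deposited table gives q = 0.227).

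Both remaining erythroid genes were low in MLL-AF9 cells. Hemgn, a nuclear protein of blood precursors, fell 7.47-fold from 10.5 to 1.40 FPKM (the authors' deposited table gives q = 0.00498). Trim10, a RING finger protein of late red cell maturation, was listed at 2.07 and 0.467 FPKM, 4.44-fold lower without passing (the authors' deposited table gives q = 0.156). Of the 30 genes it had the lowest level in both groups.

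**Figure D3:**
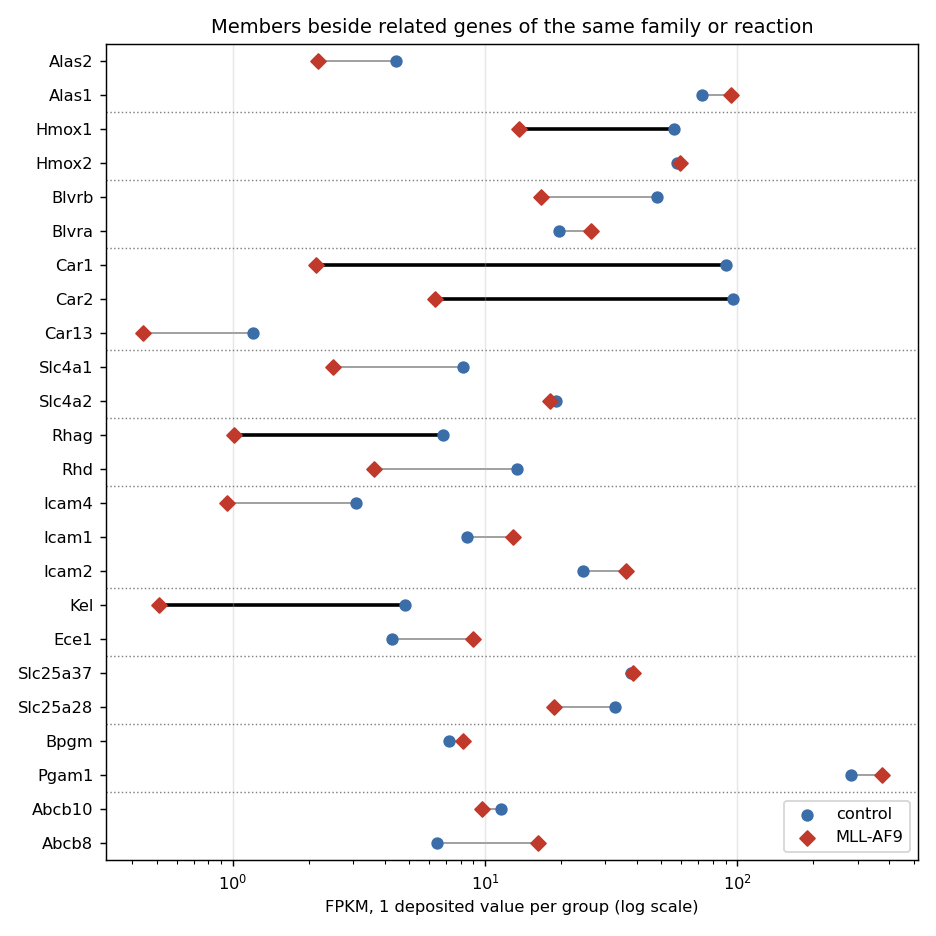
Deposited FPKM values in control (circles) and MLL-AF9 cells (diamonds) on a log axis for members and related genes of the same family or reaction, 1 value per group without error. Thick lines join genes with a q-value under 0.05; Hmox1 fell from 56.2 to 13.7 FPKM, while Hmox2 was listed at 57.5 and 59.5 FPKM.

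Other genes of the same pathways were counted from 4 lists of 87 genes, of which 79 were matched and 69 reached the minimum mean. Of these 69, 17 fell (24.6%) and 3 rose. Of all genes tested, 5.20% were called lower and 5.13% higher in the authors' deposited table. The median log2 change of the 69 was 0.0059, beside 0.29 over all genes tested. The lists include the erythroid markers read above, so those are counted again here. Of the 17, 5 (Steap4, Slc38a5, Tal1, Epor and Klf1) were under 1 FPKM in MLL-AF9 cells and reached the minimum through control alone, so the count is given as a description. Among 14 heme genes 3 fell and 0 rose. They were Hebp1, a heme-binding protein, from 12.3 to 1.89 FPKM, Mfsd7b (the heme exporter Flvcr1), from 15.3 to 4.52 FPKM, and Nfe2l2, the stress factor that induces Hmox1, from 79.4 to 27.7 FPKM. The lowest q-value of these was that of Hebp1 (the authors' deposited table gives q = 0.0238).

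Among 20 iron genes 4 fell and 0 rose. These were Ltf and Lcn2, granule proteins of neutrophils that bind iron or iron carriers, the phagocyte metal transporter Slc11a1, from 52.7 to 2.69 FPKM, and the metalloreductase Steap4, from 5.14 to 0.281 FPKM. Lcn2 fell from 8093 to 726 FPKM. The markers of late granulocytes, which include Ltf and Lcn2, all fell, 8 of 8, from a summed 64082 to 5664 FPKM, and their part in the falls of this list was not tested. The regulators of iron balance Ireb2 and Aco1, which bind iron-responsive elements, did not pass; the authors' deposited table gives q = 0.818 and q = 0.697.

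Of 15 further membrane genes 4 fell and 1 rose. The amino acid transporters Slc38a5 and Slc43a1 fell from 7.07 to 0.405 FPKM and from 5.53 to 1.10 FPKM, and the sphingolipid transporter Mfsd2b from 5.74 to 1.12 FPKM. Epor fell 8.12-fold to 0.646 FPKM. Of 20 further enzymes and maturation genes 6 fell and 2 rose. Pklr, the pyruvate kinase of red cells and liver, fell 4.94-fold from 6.83 to 1.38 FPKM, and Ube2l6, a ubiquitin and ISG15 conjugating enzyme, fell 7.62-fold from 50.6 to 6.65 FPKM. Klf1, which activates many red cell genes through CACCC sites, fell from 9.19 to 0.884 FPKM, and Tal1, its partner in the same programme, from 5.97 to 0.514 FPKM. The 3 genes that rose, named here after their values were seen, were Cd47, Lmo2 and Fam132b. Cd47, a membrane protein that inhibits phagocytosis, rose from 92.0 to 277 FPKM, and the adaptor Lmo2 from 100 to 232 FPKM. Fam132b, which encodes the hormone erythroferrone, rose from 0.322 to 2.18 FPKM and so reached the minimum through MLL-AF9 cells alone.

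**Figure D4:**
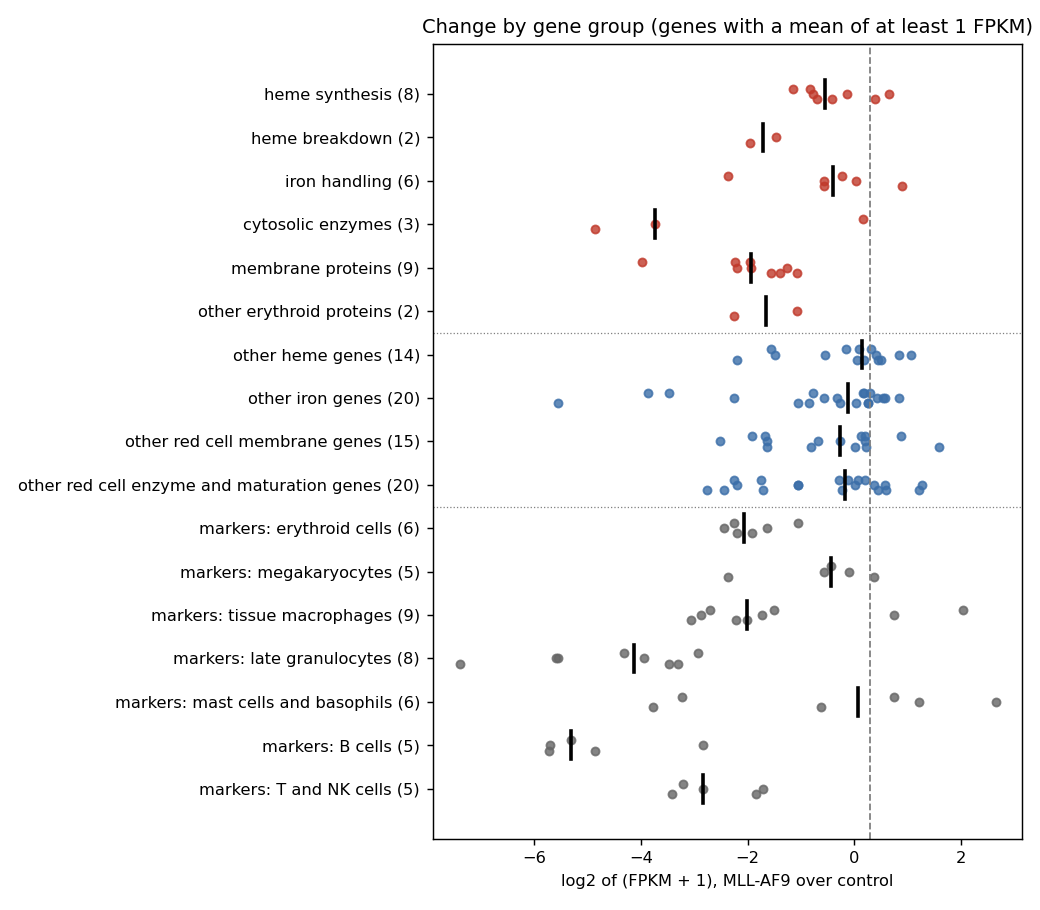
Log2 change of (FPKM + 1), MLL-AF9 over control, for genes past the minimum mean: the 30 genes by role (red), other genes of the pathways (blue) and cell type markers (grey), with 1 point per gene, the black bar at the median and the number of genes in brackets. The dashed line is the median of all genes at 0.29, and all 9 membrane genes lie below -1; endothelial markers are left out because 1 gene reached the minimum.

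Markers of other marrow cells moved in the same comparison. All 5 B cell markers and all 5 T and NK cell markers fell, from summed levels of 620 to 33.6 FPKM and of 46.2 to 2.22 FPKM; 3 and 5 of these reached the minimum mean through control alone. Of 5 megakaryocyte markers that reached the minimum mean, from a lineage that shares Gata1 with red cells, only Pf4 fell, from 12.2 to 1.57 FPKM, and 0 rose. Of 6 mast cell and basophil markers 2 fell and 1 rose, from a summed 451 to 396 FPKM. None of the megakaryocyte, mast cell, B cell or T and NK cell markers was at 0 except the megakaryocyte gene Gp6, listed at 0 in MLL-AF9 cells.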

How the data were processed

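PolyA RNA was compared between 3 control and 3 MLL-AF9 libraries, grouped by the sample labels, which mention duplicates per genotype although 3 are listed, so the pooled values may not rest on all 3. The submitters' processing notes name TopHat 1.4.1, Cufflinks 1.3.0, Bowtie 0.17.2 and CASAVA 1.8.2 with build mm9, and roles or settings are not given in the sources. The authors deposited 1 value per group, taken as FPKM because Cufflinks is named, since the header gives no unit. The p-value and q-value of each row were deposited by the authors, and the test behind them is not stated. The planned limma fit needs values per library and was not run. Depth per library is unknown.

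From these values log2 changes with a pseudocount of 1, ratios and counts of calls were computed. A row listed at 0 in control, over 100 FPKM in the other group and with a p-value of 1 was left out as a failed estimate. The 31 genes, the other lists and the markers were chosen with earlier results of these data known. All matched genes are named, with up to 4 called genes of each other list by smallest q-value; relatives and markers are named to describe them. The symbols Flvcr1, Flvcr2 and Tfr2 were matched through RefSeq synonyms. Some genes of the other lists are not reported here and are in no count of these lists. The 5hmC regions are in mm9 and were not used here, since the annotation is of GRCm38. That annotation served for overlaps between genes, and RefSeq promoters of GRCm38.p6 for sequences; no protein sequence was used here. Alternatives were other pseudocounts, minimum means, thresholds and scalings, and counting steps were tested on simulated data. Scripts ran under Python 3.11.15 with pandas 2.3.3, numpy 2.4.6, scipy 1.17.1 and, for plots, matplotlib 3.10.9.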

Additional observations from a re-analysis of the deposited data

How the results depend on the processing

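Of the 30 genes, 11 were called lower and 0 higher as deposited. Dropping the minimum mean, asking for at least a 2-fold change or centring on the median gene could not change these counts. All 30 genes had reached the minimum mean, the 11 had log2 changes of -1.56 or lower, and centring leaves the q-values as deposited. Of all genes, 748 were called lower and 692 higher without a minimum mean. With at least a 2-fold change, 587 were called lower and 537 higher. The counts of 11 and 0 held with the deposited p-values adjusted anew by Benjamini-Hochberg over the genes tested. With a minimum mean of 5 FPKM, which not all 30 reached, 7 were called lower and 0 higher. Of all 9004 genes past that minimum, 425 were called lower and 418 higher. With a q-value under 0.01, 8 of the 30 were called lower and 0 higher. Of all 11538 genes, 424 were then called lower and 362 higher. Of the other pathway genes, 17 were called lower, or 10 with a minimum mean of 5 FPKM and 10 with a q-value under 0.01, at which 0 of the 3 higher calls passed. The median log2 change of the 30 genes, -1.11 as reported, was -1.51 with a pseudocount of 0.1, -0.65 with a pseudocount of 5, -1.32 after quantile normalization, -1.22 after upper quartile scaling, -1.21 when scaled without the 50 highest rows, -1.41 after centring, and -0.83 with a minimum mean of 5 FPKM. Signs were compared for 45 named genes, the 30 and 15 called genes of the other lists. Of their 180 log2 changes under 4 other scalings, 174 had the same sign. The 6 that reversed were of Slc25a37 (-0.12 after quantile normalization, -0.14 after upper quartile scaling, -0.11 without the 50 highest rows and -0.27 after centring) and Bpgm (-0.13 after quantile normalization and -0.13 after centring), neither of which passed. Other named genes were not in this count, and among them Hmox2, Xk, Slc14a1 and Bsg turned negative after centring. The causes were not tested. No paired analysis was possible because the table holds 1 value per group, and for the same reason no library could be left out. Without libraries' values and depth, the precision of low genes is unknown.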
